A study of Mus musculus with 8 samples.

Results

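The MHC class II presentation genes are the 10 genes that encode the peptide-binding chains H2-Aa, H2-Ab1 and H2-Eb1, the invariant chain Cd74, the peptide editor H2-DM (H2-DMa, H2-DMb1, H2-DMb2), its inhibitor H2-O (H2-Oa, H2-Ob) and the transactivator Ciita. They were taken by symbol from a table of 23234 gene rows, and all 10 were found. Each reached 1 FPKM (read fragments per length of transcript and per library total, so levels of genes can be compared) in every library, so all 10 were among the 10610 genes tested. The cells were donor germinal centre B cells of C57BL/6 mice from the spleen, sequenced as 8 RNA libraries in 4 groups of 2. The donors called sKO here were Bach2(+/+) and those called dKO were Bach2(f/f). Donors of all groups were Prdm1(f/f) and carried ERT2cre(KI/+), a Cre that tamoxifen activates, as well as B1-8hi(KI/+), a heavy chain knock-in that gives an NP-binding receptor. Every comparison is thus on a background of floxed Prdm1, and cells with wild-type Prdm1 were not analysed here. Naive donor cells were put into wild-type recipients, which have their own T cells and antigen-presenting cells and whose B cells were told apart by CD45 allele. Recipients got 3 mg tamoxifen for 3 days and then NP-CGG in alum by the intraperitoneal route, and splenocytes of 5 recipients were pooled 10 days after it. NP-binding GL7+ CD38- donor cells were sorted as light zone (LZ, CD86 high, CXCR4 low) or dark zone (DZ, CD86 low, CXCR4 high) cells, about 30000 per library.

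MHC class II molecules show peptides from taken-up proteins to CD4+ T cells. The α and β chains assemble with Cd74, which fills the groove and guides them to endosomes, where proteases trim Cd74 and H2-DM exchanges its last fragment for antigen peptides. H2-O binds H2-DM and restrains it, mainly in B cells. Ciita does not bind DNA itself but is recruited to class II promoters by RFX, CREB and NF-Y, and it sets transcription of the family. Germinal centre B cells in the LZ compete for T cell help by presenting antigen on these molecules. Bach2 and Prdm1 are repressors that act on opposite sides of plasma cell differentiation, and Prdm1 represses Ciita.

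Promoters of class II genes are known for a block called the SXY module, and motifs of its X, X2 and Y boxes are shown here as description. Whether they go with the levels that follow was not tested. RefSeq promoter windows (GRCm38.p6, from 250 bases before to 50 bases after each start) were matched for 7 of the 10 genes, in 8 windows. H2-Ab1, Cd74 and Ciita had no window. H2-DMa held ATTGG but neither of the spaced pairs given after the sequences, and is not printed. In the stretches printed here, capitals mark GCAAC (within the X box, bound by RFX), TGATG or TGACG (within the X2 box, bound by CREB) and ATTGG (the Y box, bound by NF-Y). All lie on chromosome 17, upstream of the start and on the coding strand, at chr17:34092291-34092355 (+) for H2-Oa, chr17:34145114-34145178 (+) for H2-DMb2, chr17:34153085-34153149 (+) for H2-DMb1, chr17:34238803-34238867 (+) for H2-Ob, chr17:34287852-34287916 (-) for H2-Aa and chr17:34305763-34305827 (+) for H2-Eb1.
H2-Oa: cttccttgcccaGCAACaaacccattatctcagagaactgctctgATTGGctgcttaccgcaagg
H2-DMb2: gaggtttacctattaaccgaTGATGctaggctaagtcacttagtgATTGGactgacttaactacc
H2-DMb1: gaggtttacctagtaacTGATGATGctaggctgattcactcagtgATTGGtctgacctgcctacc
H2-Ob: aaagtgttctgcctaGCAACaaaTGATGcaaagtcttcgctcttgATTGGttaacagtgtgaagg
H2-Aa: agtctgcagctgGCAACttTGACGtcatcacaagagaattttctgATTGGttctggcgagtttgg
H2-Eb1: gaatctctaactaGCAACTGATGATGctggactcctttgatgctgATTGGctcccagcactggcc

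Searched on both strands, ATTGG was in 7 of the 8 windows, 1 for each of the 7 genes matched, against 37.4% of all 32851 promoter windows. GCAAC with ATTGG starting 30 to 33 bases further on was in 4 of the 8 windows (H2-Aa, H2-Eb1, H2-Oa and H2-Ob), against 0.201% of all windows. TGATG or TGACG with ATTGG starting 22 to 29 bases further on was in 5 of the 8 (H2-Aa, H2-DMb1, H2-DMb2, H2-Eb1 and H2-Ob), against 0.880%. The distances were set after the windows had been read. TGAGTCA, an AP-1-like motif that Bach2 can bind with Maf partners, was in 1 of the 8 windows, of H2-DMa, against 5.20% of all windows. Motif matches describe these letters, and binding was not measured.

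FPKM summed to 502214 to 540885 per library, and 10192 to 10250 genes reached 1 FPKM. Absolute depth is unknown from FPKM; by the steps of low values DZ depth was 1.43 times LZ depth, and the ratio of dKO to sKO depth was 1.05 for LZ and 0.971 for DZ. Pairs of replicates correlated at 0.946 to 0.960 across genes (Pearson, log2 scale). No label names separate mice or pools for the replicates, so p-values measure the spread between these libraries, which may be technical. Marker sums followed the sort: the summed 6 pan B cell genes (Cd79a, Cd79b, Ms4a1, Pax5, Cd22, Blk) were at 2560 to 3660 FPKM, 8 light zone genes at 1160 and 1240 for sKO LZ, 892 and 902 for dKO LZ, 397 and 376 for sKO DZ and 264 and 263 for dKO DZ, and 8 dark zone genes at 449 to 492 in LZ and 757 to 806 in DZ. These lists hold Cd86 and Cxcr4, whose proteins set the sort, so part of this match was fixed by it. Cd86 mRNA was itself lower in dKO LZ than in sKO LZ (-0.32, limma, adjusted p = 0.0238). Bach2 mRNA was present in every library, at 49.8 to 96.2 FPKM and higher in dKO, and with the deleted exon not stated its level checks nothing about the deletion.

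Class II genes were among the most abundant mRNAs in these cells. Cd74, the chaperone of the class II chains, was at 7845 and 7722 FPKM for sKO LZ, 6600 and 6552 for dKO LZ, 4805 and 5167 for sKO DZ and 4175 and 4059 for dKO DZ. It ranked 1 to 3 among all genes in each library. The 10 genes together made up 2.86% and 2.90% of the FPKM sum for sKO LZ, 2.46% and 2.46% for dKO LZ, 1.94% and 1.96% for sKO DZ and 1.64% and 1.62% for dKO DZ. The share was thus higher in LZ than in DZ and, within each zone, lower in dKO, with no overlap between libraries.

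The classical chains came next. H2-Aa, the α chain of I-A, was at 2338 and 2416 FPKM for sKO LZ, 2092 and 2092 for dKO LZ, 1435 and 1538 for sKO DZ and 1193 and 1206 for dKO DZ. H2-Ab1, its β partner, was at 2096 and 2040, 1946 and 1935, 1364 and 1467, and 1272 and 1188 FPKM in the same order. H2-Eb1, the β chain of I-E, was at 1368 and 1367, 1281 and 1250, 870.6 and 939.0, and 750.8 and 750.6 FPKM. All 3 were highest in sKO LZ and lowest in dKO DZ, and no library of 1 group overlapped another group. The I-E α partner is not made in the H-2b haplotype of C57BL/6 mice, and its pseudogene row, H2-Ea-ps, was at 0 to 0.673 FPKM, below the filter.

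Levels of the editing and regulatory genes were lower. H2-DMa, the α chain of H2-DM, was at 430.6 and 421.1 FPKM for sKO LZ, 361.1 and 355.2 for dKO LZ, 289.7 and 322.4 for sKO DZ and 219.9 and 228.5 for dKO DZ. The β chain genes H2-DMb2 and H2-DMb1 were at 530.9 to 538.8 and 275.6 to 276.7 FPKM in sKO LZ and at 259.5 to 268.7 and 144.7 to 148.5 in dKO DZ. Transcripts of that pair are 94.6% identical (GENCODE), and 26.6% of the 50-base windows of H2-DMb1 occur in H2-DMb2, so the split of reads between them is uncertain. Summing both rows to 1 value kept the call between genotypes in each zone and between zones in each genotype.

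H2-Oa, the α chain of H2-O, was at 173.2 and 161.9 FPKM for sKO LZ, 89.76 and 94.11 for dKO LZ, 93.37 and 94.80 for sKO DZ and 55.48 and 57.96 for dKO DZ. H2-Ob, its β chain, was at 277.8 and 305.2, 189.9 and 196.6, 241.0 and 235.9, and 194.6 and 192.7 FPKM in that order. H2-Oa thus had similar levels in dKO LZ and sKO DZ, with overlapping libraries, while the libraries of H2-Ob in dKO LZ overlapped those in dKO DZ. Ciita, the transactivator, was at 108.3 and 114.1, 79.38 and 82.48, 78.72 and 75.77, and 56.34 and 60.78 FPKM. Its groups did not overlap, and dKO LZ lay just above sKO DZ.

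In sKO LZ the order by FPKM, a measure per length, was Cd74, H2-Aa, H2-Ab1, H2-Eb1, H2-DMb2, H2-DMa, H2-Ob, H2-DMb1, H2-Oa and Ciita. H2-Ob and H2-DMb1 differed there by less than the larger SD (291.5 ± 19.4 and 276.1 ± 0.728, SD, n = 2). In sKO DZ, H2-Aa and H2-Ab1 overlapped (1486 ± 72.6 and 1416 ± 72.6). In dKO DZ, H2-Ab1 and H2-Aa overlapped, as did Ciita and H2-Oa (58.56 and 56.72 FPKM on average). All other neighbours in the order of a group were apart in both libraries.

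**Figure D1:**
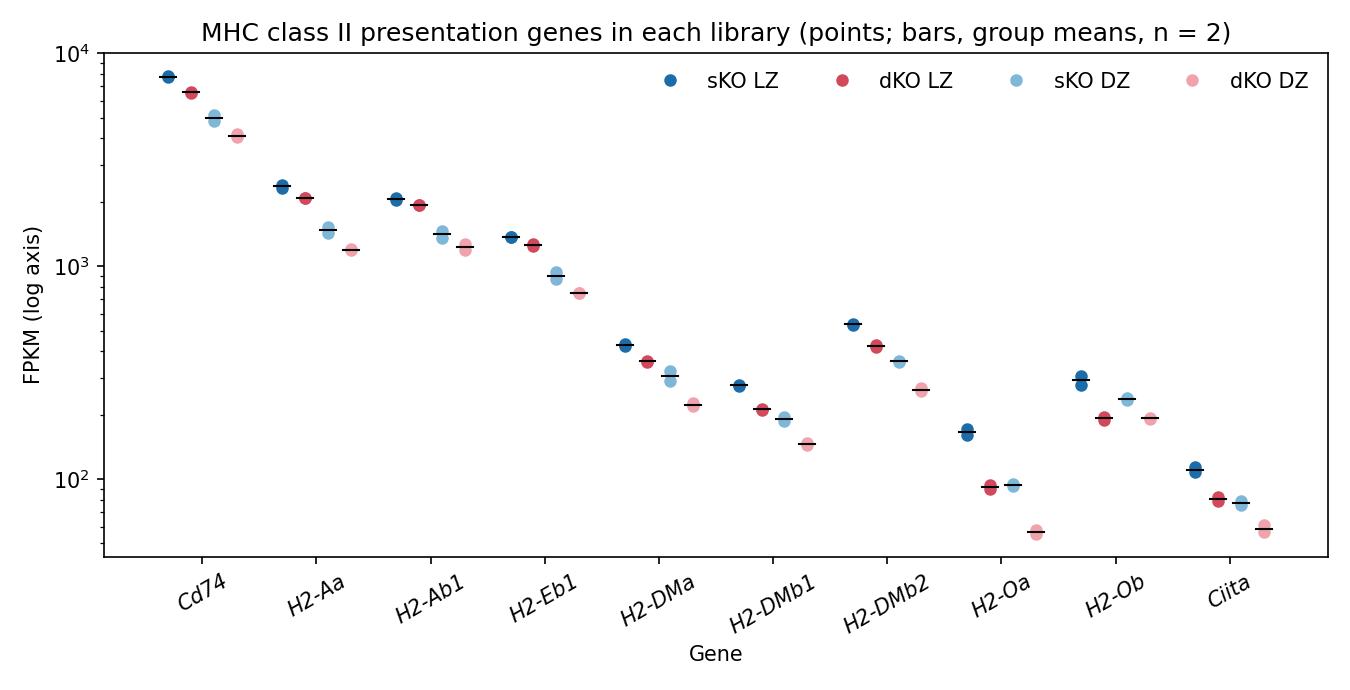
FPKM of the 10 genes (log axis) in each library, as points coloured by group, with a bar at the group mean. Cd74 lies highest, at 4059 to 7845 FPKM, and Ciita and H2-Oa lowest; in most genes the points step down from sKO LZ through dKO LZ and sKO DZ to dKO DZ, and H2-Ob and H2-Oa depart from this, with the mean of dKO LZ below that of sKO DZ.

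The zones differed in nearly the whole family. In sKO, all 10 genes were higher in LZ than in DZ (adjusted p under 0.05, limma, over all genes tested), beside 15.2% of all genes called higher. All 10 also had no overlap between libraries, against 32.7% of all genes without overlap in that direction. The median of the 10 differences was 0.563 on the log2(FPKM + 1) scale, and that of all genes was -0.004. In dKO, 9 of 10 were higher in LZ (18.0% of all genes), 9 of 10 without overlap (37.7%), with a median of 0.675 against 0.007. Since LZ cells were sorted as CD86 high and CXCR4 low, these differences are between sorted fractions. The genotype and zone comparisons use the same 8 libraries and are not independent of each other.

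H2-Oa had the largest zone difference of the 10 in sKO, 0.83 ± 0.0485 (SE), a ratio of 1.78 (limma, adjusted p = 0.000191). H2-Aa followed with 0.68 ± 0.0501, a ratio of 1.60, and Cd74 with 0.64 ± 0.0587. H2-Eb1 rose by 0.60, H2-DMb2 by 0.58, H2-Ab1 by 0.55, H2-DMb1 and Ciita by 0.52 and H2-DMa by 0.48. H2-Ob had the smallest, 0.29 ± 0.0515, a ratio of 1.22 (limma, adjusted p = 0.00831; 0.0574 in a fit of only the sKO libraries). In dKO the largest was H2-Aa, 0.80 ± 0.0501, a ratio of 1.74 (limma, adjusted p = 0.00017). H2-Eb1 differed by 0.75, H2-Oa by 0.69, Cd74, H2-DMb2 and H2-DMa by 0.67 to 0.68 and Ciita by 0.46. H2-Ob was at 193.3 ± 4.80 FPKM in dKO LZ and 193.6 in dKO DZ, a difference of -0.003 with a 95% interval of -0.127 to 0.121 (limma, adjusted p = 0.970).

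Between genotypes the family was lower where Bach2 was floxed. In LZ, 8 of 10 genes fell in dKO and 0 rose (adjusted p under 0.05, limma), beside 12.7% of all genes called lower and 18.4% called higher. All 10 lay without overlap below sKO, as did 29.3% of all genes. The share of higher genes among all calls, 59.0%, was 45.5% with upper quartile scaling, under which 9 members were called, all lower. Their median difference was -0.293, against 0.022 over all genes. In DZ, 9 of 10 fell and 0 rose, beside 5.23% called lower and 6.63% called higher. Again all 10 did not overlap (26.3% of all genes), and the median was -0.349, against 0.014. RNA per cell and the number of cells of a type cannot be told apart in these bulk libraries.

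The classical chains had the smallest differences of the family in LZ. There, H2-Aa fell by 0.18 on the log2 scale, a level 12.0% lower (SE 0.0501, limma, adjusted p = 0.0340). H2-Ab1 was 6.18% lower and did not pass (-0.09, 95% interval -0.229 to 0.045, limma, adjusted p = 0.267), and neither did H2-Eb1, 7.47% lower (-0.11, 95% interval -0.228 to 0.004, adjusted p = 0.126). In DZ, H2-Aa fell by 0.31, 19.3% lower (adjusted p = 0.0155), and H2-Eb1 by 0.27 (adjusted p = 0.0204, limma). H2-Ab1, 13.1% lower, did not pass (-0.20, 95% interval -0.339 to -0.066, limma, adjusted p = 0.0699; 0.0332 at its lowest, among the scaling alternatives). Cd74 fell in both zones, by 0.24 in LZ (15.5% lower, adjusted p = 0.0228) and 0.28 in DZ (17.4% lower, adjusted p = 0.0330, limma).

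Genes of peptide editing fell in both zones. H2-DMa was 15.9% lower in LZ and 26.7% lower in DZ (-0.25 ± 0.0564 and -0.45 ± 0.0564, limma, adjusted p = 0.0186 and 0.00841). H2-DMb1 was 22.7% and 23.8% lower (-0.37 and -0.39, SE 0.0363, adjusted p = 0.00149 and 0.00429). H2-DMb2 was 20.9% and 26.2% lower (-0.34 and -0.44, SE 0.0363, adjusted p = 0.00183 and 0.00294).

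H2-Oa had the largest fall of the family in both zones. It was 45.1% lower in dKO LZ and 39.7% lower in dKO DZ (-0.86 ± 0.0485 and -0.72 ± 0.0485, limma, adjusted p = 0.000772 and 0.00154). H2-Ob was 33.7% lower in LZ and 18.8% lower in DZ (-0.59 ± 0.0515 and -0.30 ± 0.0515, adjusted p = 0.00112 and 0.0180). Ciita was 27.2% and 24.2% lower (-0.45 ± 0.0523 and -0.39 ± 0.0523, adjusted p = 0.00214 and 0.00910). Within each zone, the 95% interval of H2-Oa (-0.975 to -0.742 in LZ, -0.837 to -0.604 in DZ) lay below that of each of the other 9 genes.

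Both counts depended on single libraries. With 1 LZ library left out, 5 genes were called lower in LZ, whichever of the 4 it was: H2-DMb1, H2-DMb2, H2-Oa, H2-Ob and Ciita kept their calls, while H2-Aa, H2-DMa and Cd74 lost theirs (adjusted p up to 0.147, 0.0904 and 0.131). H2-Aa and Cd74 in LZ were also lost without either dKO DZ library. In DZ, 3 genes were called without dKO DZ replicate 1 (H2-DMb1, H2-DMb2, H2-Oa) and 4 without dKO DZ replicate 2, which adds Ciita. Calls of H2-Ob, H2-Eb1 and Cd74 in DZ also depended on libraries other than those of dKO DZ. Their differences in DZ with 1 library left out were -0.314 to -0.284, -0.323 to -0.213 and -0.328 to -0.223, in that order. The numbers of the replicates are not known to pair the samples, and with the replicate block Cd74 in DZ was not called (limma, adjusted p = 0.0691), leaving 8 genes.

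**Figure D2:**
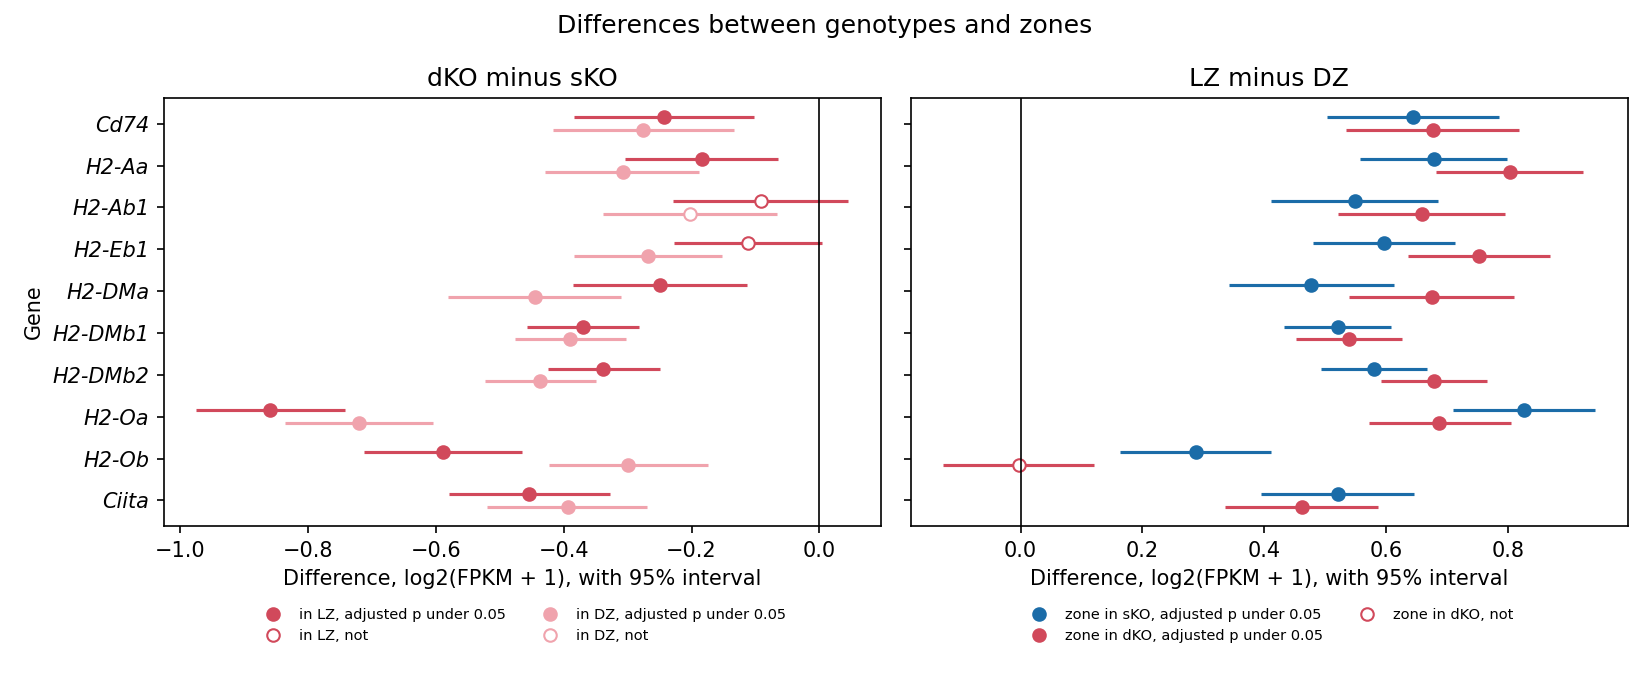
Differences on the log2(FPKM + 1) scale with 95% intervals for each gene, dKO minus sKO in LZ and DZ on the left and LZ minus DZ in sKO and dKO on the right; filled points passed an adjusted p of 0.05. H2-Oa is farthest to the left at -0.86 and -0.72, and on the right H2-Ob in dKO sits at 0 while the other 9 genes lie between 0.46 and 0.80.

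The genotype effects in the zones were compared directly as an interaction, the effect in LZ minus that in DZ. No member was called (limma), beside 0.0283% of all genes. H2-Ob had the larger fall in LZ (-0.29 ± 0.0728, unadjusted p = 0.00622, adjusted p = 0.336), and H2-DMa the larger fall in DZ (0.20 ± 0.0798, unadjusted p = 0.0463, adjusted p = 0.426). The smaller falls of H2-Aa, H2-Ab1 and H2-Eb1 in LZ than in DZ gave 0.12, 0.11 and 0.16 (adjusted p = 0.543, 0.628 and 0.448). A difference between zones in the effect of genotype was thus not shown for any member.

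Ratios between members do not depend on how a library is scaled. The summed H2-DM genes over the summed H2-O genes were at 2.76 and 2.63 for sKO LZ, 3.56 and 3.42 for dKO LZ, 2.53 and 2.62 for sKO DZ and 2.50 and 2.58 for dKO DZ. The dKO LZ libraries stood above the other 6, which lay between 2.50 and 2.76. On the log2 scale the genotypes differed by 0.37 in LZ and -0.02 in DZ, beside a pooled replicate SD of 0.0409. Over both zones the genotype difference was 0.18 (exact permutation within zones, two-sided p = 0.278) and the zone difference 0.26 (exact permutation within genotypes, p = 0.0556). With 36 arrangements the smallest p possible is 0.0556. Taking the mean of log2(FPKM + 1) over the genes of each complex instead gave, by the same exact permutation tests, 0.245 for genotype (p = 0.0556) and 0.129 for zone (p = 0.278), so which of the differences reached the smallest p depended on how the chains were combined.

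Within H2-O the chains shifted against each other. H2-Oa over H2-Ob was 0.577 ± 0.0657 for sKO LZ, 0.476 ± 0.00409 for dKO LZ, 0.395 ± 0.0102 for sKO DZ and 0.293 ± 0.0111 for dKO DZ (SD, n = 2), with no overlap between groups. H2-Aa over H2-Ab1 stayed nearer to even, at 1.15 ± 0.0486, 1.08 ± 0.00441, 1.05 ± 0.00260 and 0.977 ± 0.0544. Cd74 over H2-Ab1 was at 3.74 and 3.78 in sKO LZ and 3.39 and 3.39 in dKO LZ. In DZ it was at 3.52 and 3.52 in sKO and 3.28 and 3.42 in dKO.

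Other B cell genes moved with the class II genes. Of the 6 pan B cell genes, 5 fell in dKO LZ (all but Pax5), beside 12.7% of all genes. In dKO DZ 4 fell (all but Pax5 and Ms4a1), beside 5.23% of all genes. The pan B cell sum was 3520 and 3660 FPKM for sKO LZ, 3080 and 3070 for dKO LZ, 2970 and 3100 for sKO DZ and 2560 and 2620 for dKO DZ. Ratios to this sum were computed after the values had been seen. The 10 class II genes over it were at 4.39 and 4.20 for sKO LZ, 4.31 and 4.30 for dKO LZ, 3.27 and 3.35 for sKO DZ and 3.25 and 3.11 for dKO DZ. Relative to the pan B cell genes, the family summed, which is mostly Cd74 and the classical chains, thus overlapped between genotypes in LZ and was slightly lower in dKO DZ. Its zone difference remained, with every LZ library above every DZ library. The light zone genes, whose sums are given with the sort, also moved with genotype. Of the 8, 5 fell in dKO LZ, beside 12.7% of all genes, and 5 in dKO DZ, beside 5.23%. These were Fcer2a, Il4i1, Cd72 and Cd83 in both zones, Cd86 in LZ and Bcl2a1d in DZ. Their part in the result was not tested.

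Members differed among themselves on this scale. The classical chains H2-Aa, H2-Ab1 and H2-Eb1 summed, over the pan B cell sum, were at 1.65 and 1.59 for sKO LZ, 1.73 and 1.72 for dKO LZ, 1.23 and 1.27 for sKO DZ and 1.26 and 1.2 for dKO DZ. Both dKO LZ values thus lay above both of sKO LZ, over a pan B cell sum that was itself lower in dKO, and the genotypes overlapped in DZ. Per 1000 FPKM of pan B cell genes, H2-Oa was at 49.2 and 44.3 for sKO LZ, 29.2 and 30.7 for dKO LZ, 31.4 and 30.6 for sKO DZ and 21.7 and 22.1 for dKO DZ. Ciita was at 30.8 and 31.2, 25.8 and 26.9, 26.5 and 24.4, and 22 and 23.2 in the same order. H2-Oa and Ciita were lower in dKO in both zones without overlap. The share of all genes without overlap on this ratio scale was not computed. On the FPKM scale, 29.3% of all genes in LZ and 26.3% in DZ were lower in dKO without overlap. H2-Ob was lower in LZ, at 79.0 and 83.5 in sKO and 61.7 and 64.1 in dKO, and in DZ it was at 81.0 and 76.1 in sKO and 76.0 and 73.5 in dKO. The H2-DM genes together were at 354 and 336 against 323 and 324 in LZ and at 284 and 280 against 244 and 246 in DZ.

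**Figure D3:**
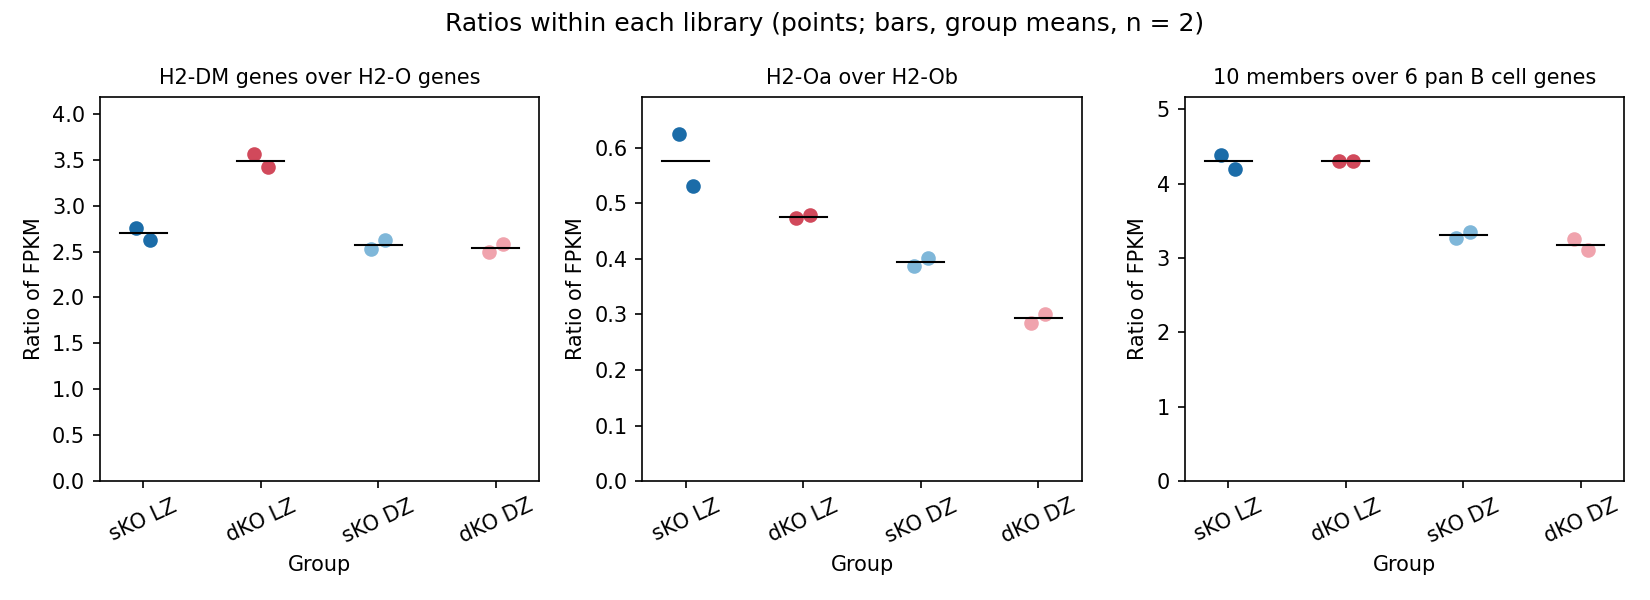
Ratios of FPKM within each library (points, with bars at group means, axes from 0): H2-DM genes over H2-O genes, H2-Oa over H2-Ob, and the 10 members over 6 pan B cell genes. The first stands out in dKO LZ at 3.42 and 3.56, the second steps down from 0.577 to 0.293, and the third separates the zones but not the genotypes in LZ.

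Markers of other antigen-presenting cells were low. Of 10 dendritic cell markers, 8 were under 1 FPKM in every library, among them Itgax, Zbtb46 and Clec9a, and Batf3 was at 0 throughout. Their summed level, nearly all Flt3, was 21.4 to 23.3 for sKO LZ, 14.4 to 15.7 for dKO LZ, 16.4 to 16.7 for sKO DZ and 13.6 to 13.7 for dKO DZ. The 12 macrophage and monocyte markers found summed to 22.1 to 32.9, 24.8 to 54.6, 13.7 to 14.6 and 10.4 to 12.2 in that order, with 8 under 1 FPKM, among them Csf1r. Neutrophil markers summed to 0.975 to 109 and were highest in dKO LZ replicate 2, and of 6 T cell markers found, 5 were under 1 FPKM. The remaining T cell marker, Lck, was at 32.7 to 64.64 FPKM. Lck was higher in LZ than in DZ (0.68 in sKO and 0.89 in dKO, limma, adjusted p = 0.000662 and 0.000223). Naive and resting B cell markers, of which Fcer2a and Cr2 made up most, moved with the class II genes, at 380 to 415, 203 to 212, 121 to 127 and 62.4 to 63.0, and the plasma cell marker sum, most of it Igj, was at 309 to 325, 368, 431 to 449 and 460 to 472. Igj rose in dKO LZ (0.24, limma, adjusted p = 0.00549) and was lower in LZ than in DZ, whereas Xbp1 passed in none of the 4 comparisons and Irf4 was higher in LZ and fell in dKO DZ. Sdc1, Prdm1 and Tnfrsf17 were under 1 FPKM in every library, with Tnfrsf17 at 0 throughout. Sdc1, named after its values were seen, was at 0.06661 and 0.06368 FPKM for sKO LZ and 0.6059 and 0.5053 for dKO LZ. In DZ, Sdc1 was at 0.04099 and 0.141 for sKO and 0.1561 and 0.2733 for dKO. Their part in the result was not tested.

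Along chromosome 17 the class II genes lie in 1 block that also holds genes of class I presentation. In the RefSeq annotation the protein-coding genes run H2-Oa, Brd2, H2-DMa, H2-DMb2, H2-DMb1, Psmb9, Tap1, Psmb8, Tap2, H2-Ob, H2-Ab1, H2-Aa, H2-Eb1 and H2-Eb2, 14 genes of which 8 are members. Ciita and Cd74 lie elsewhere. The block was read for its neighbours after the member values had been seen, so it serves as description. Of all genes, 12.7% fell in dKO LZ and 5.23% in dKO DZ, with medians of 0.022 and 0.014. Of the 6 neighbours, 2 fell in dKO LZ and 3 in dKO DZ, with medians of -0.080 and -0.200. H2-Eb2, a class II β chain gene, was one of them in both zones (-0.42 ± 0.0432 and -0.24 ± 0.0432, limma, adjusted p = 0.00165 and 0.0196), and it was also higher in LZ than in DZ (0.55 in sKO and 0.37 in dKO).

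The other neighbours are mostly genes of class I presentation. Tap1, a peptide transporter subunit, fell by 0.23 in LZ and 0.25 in DZ (limma, adjusted p = 0.0198 and 0.0342), and Psmb9, an immunoproteasome subunit, fell by 0.27 in DZ (adjusted p = 0.0479). Psmb8, Tap2 and Brd2, a bromodomain gene, did not pass in any of the 4 comparisons. Brd2 was at 99.98 ± 15.1 FPKM in sKO LZ and 100.8 ± 0.555 in dKO LZ (SD, n = 2), between H2-Oa and H2-DMa. For the zones, H2-Eb2 was the only neighbour called, higher in LZ, beside 15.2% of all genes called higher in sKO and 18.0% in dKO. The neighbours' medians were -0.025 in sKO and 0.055 in dKO, against -0.004 and 0.007 over all genes. Brd2 overlaps H2-DMa in the annotation, a non-coding gene overlaps H2-Oa and Dexi overlaps Ciita. Since the counting is not stated to use strand, reads in those overlaps cannot be told apart.

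**Figure D4:**
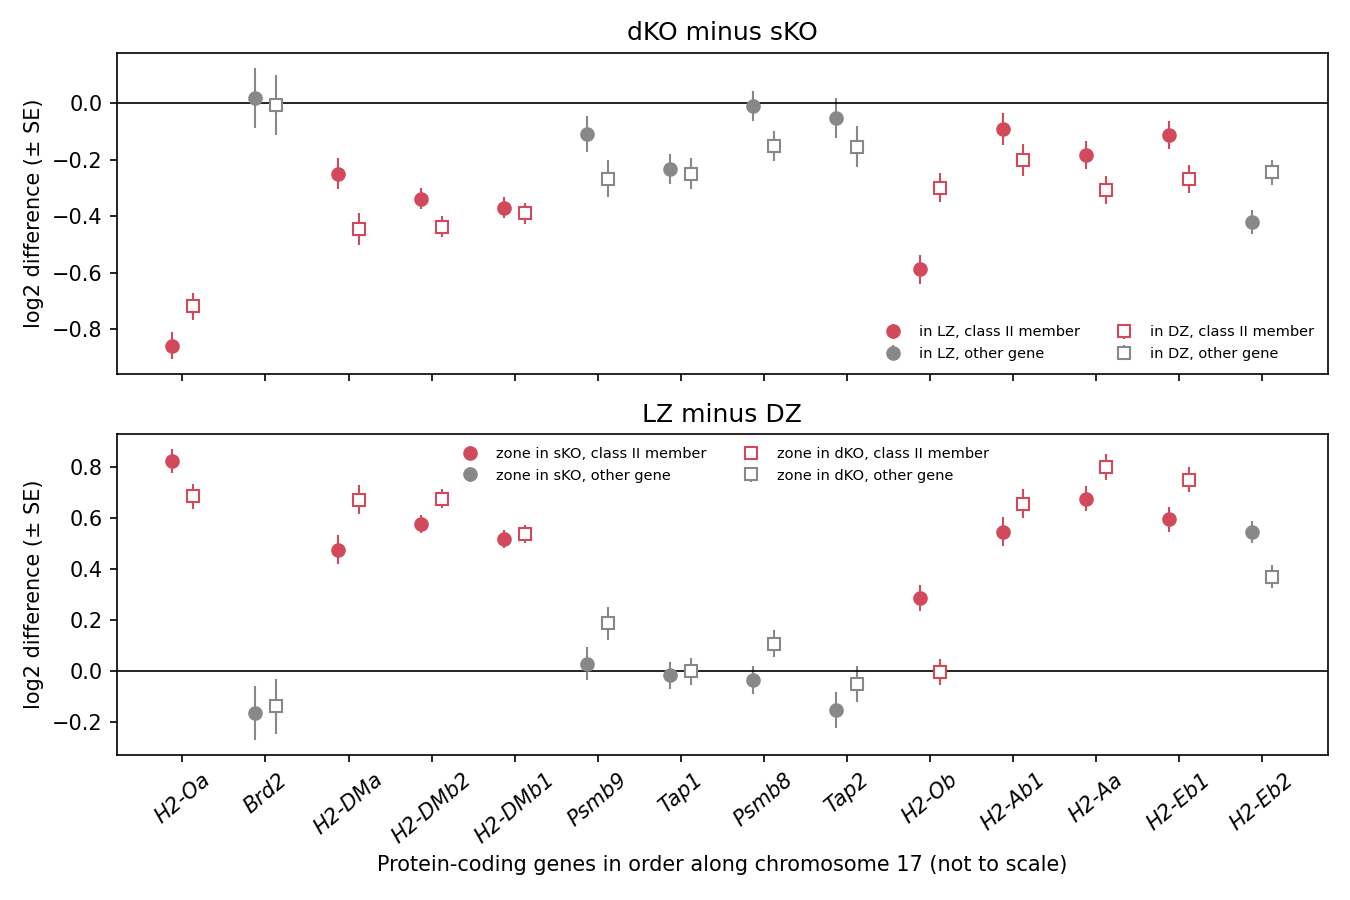
Differences on the log2(FPKM + 1) scale (± SE) for the 14 protein-coding genes of the block in order along chromosome 17, not to scale, dKO minus sKO above and LZ minus DZ below, with class II members in red and other genes in grey. Class II members lie at 0.29 or above in the lower panel except H2-Ob in dKO, while Brd2, Psmb9, Tap1, Psmb8 and Tap2 lie between -0.164 and 0.188 and H2-Eb2 is at 0.55 and 0.37.

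Of 23 known or candidate regulators of class II genes searched, 21 were tested. In dKO LZ, 3 rose and 3 fell (median -0.038, against 0.022 over all genes), and in dKO DZ 1 rose and 3 fell (-0.059 against 0.014). Over all genes, 18.4% rose and 12.7% fell in LZ and 6.63% and 5.23% in DZ. Bach2, whose level cannot be read because its deleted exon is not stated, is the 1 that rose in DZ and among the 3 in LZ. Rfx5, the RFX subunit that binds the X box, was at 32.63 and 34.23 FPKM for sKO LZ, 24.72 and 24.98 for dKO LZ, 21.25 and 21.45 for sKO DZ and 19.14 and 17.90 for dKO DZ. It fell by 0.41 ± 0.0484 in LZ (limma, adjusted p = 0.00223) and by 0.20 ± 0.0484 in DZ (0.0489), and was higher in LZ by 0.62 in sKO and 0.41 in dKO. Rfxank, its partner, fell in LZ (-0.24, adjusted p = 0.0269), and Rfxap, the remaining RFX subunit, did not pass (0.08, 0.630).

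Among the NF-Y and CREB genes, 1 passed. Nfya rose by 0.16 in dKO LZ (limma, adjusted p = 0.0350), while Nfyb, Nfyc and Creb1 passed in neither zone. Spib, an ETS factor of B cells, fell from 264.2 and 262.4 to 212.7 and 212.0 FPKM in LZ and from 304.4 and 323.4 to 267.9 and 263.1 in DZ (-0.31 and -0.24, limma, adjusted p = 0.00302 and 0.0165). Spib is higher in DZ than in LZ (-0.25 in sKO), the reverse of most class II genes.

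Irf4, a factor of light zone and plasma cells, was at 10.96 and 11.60 FPKM for sKO LZ, 12.81 and 12.97 for dKO LZ, 4.045 and 3.009 for sKO DZ and 1.988 and 2.350 for dKO DZ, and fell in DZ (-0.51 ± 0.117, limma, adjusted p = 0.0417). Ezh2, a Polycomb methyltransferase, rose in LZ (0.22, adjusted p = 0.0320). Prdm1, floxed in all groups, was under 1 FPKM in every library and was not tested. Its low values were 0.0577 and 0.01839 FPKM for sKO LZ and 0.9796 and 0.9665 for dKO LZ. In DZ they were 0.04734 and 0.1222 for sKO and 0.2576 and 0.4341 for dKO. The values in dKO lay above those in sKO in both zones, all of them below the filter. The deleted part of Prdm1 is not given here, so its level cannot be read, as for Bach2. Whether these values bear on Ciita was not tested. With 1 library left out, 0 to 2 regulators were called lower in DZ (0 without either dKO DZ replicate, 1 without sKO DZ replicate 1 or either dKO LZ replicate) and 1 to 3 higher in LZ (1 without either dKO LZ replicate). With upper quartile scaling, 1 was higher and 6 were lower in LZ.

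Genes of class II antigen processing, 17 tested, followed in part. In dKO LZ 5 fell and 0 rose (median -0.024), and in dKO DZ 4 fell and 1 rose (-0.140), beside 12.7% of all genes that fell in LZ and 5.23% in DZ. Ctss, the protease that trims Cd74, was at 166.4 and 179.4 FPKM for sKO LZ, 135.2 and 139.6 for dKO LZ, 120.8 and 119.5 for sKO DZ and 98.98 and 106.2 for dKO DZ (-0.33 ± 0.0528 in LZ and -0.23 ± 0.0528 in DZ, limma, adjusted p = 0.00591 and 0.0423). Ctsh, another cathepsin, fell by 0.22 and 0.27 (0.0195 and 0.0224). Cd83, which opposes class II ubiquitination by March1, fell by 0.20 and 0.42 (0.0440 and 0.0101). March1, the ubiquitin ligase, fell in LZ (-0.41, limma, adjusted p = 0.00184) and Ctse in LZ and DZ (-0.41 and -0.26). Lamp2, a lysosomal membrane gene, was the 1 that rose in DZ (0.18). March1, Ctse and Lamp2 are named after their values were seen, as the rest of these short counts.

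Ifi30, the thiol reductase that unfolds antigen, did not pass between genotypes. It was at 363.8 and 401.5 FPKM for sKO LZ, 389.6 and 385.6 for dKO LZ, 141.6 and 159.6 for sKO DZ and 137.5 and 135.1 for dKO DZ, with overlapping genotypes in LZ (0.02, limma, adjusted p = 0.855). Between zones it differed by 1.34 in sKO and 1.5 in dKO, more than any class II member. Of the 17 genes, 7 were higher and 2 lower in LZ of sKO and 8 and 2 in dKO, beside 15.2% higher and 16.1% lower of all genes in sKO and 18.0% and 16.1% in dKO. With 1 library left out, 0 to 3 were called lower in dKO DZ (0 without dKO DZ replicate 1), 0 higher there, and 3 to 5 lower in dKO LZ (3 without dKO LZ replicate 1).

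Of the class I presentation genes, 19 were tested. In dKO LZ 8 fell and 5 rose (median -0.109), beside 12.7% and 18.4% of all genes, and in dKO DZ 8 fell and 1 rose (-0.214), beside 5.23% and 6.63%. H2-T23, a non-classical class I gene, was at 172.9 and 173.7 FPKM for sKO LZ, 106.8 and 105.7 for dKO LZ, 127.0 and 143.8 for sKO DZ and 88.04 and 86.58 for dKO DZ (-0.70 ± 0.0587 and -0.62 ± 0.0587, limma, adjusted p = 0.00107 and 0.00438). Of the chaperones of class I loading, 3 rose in LZ, Calr by 0.31, Pdia3 by 0.33 and Canx by 0.38, and Canx also rose in DZ by 0.24 (limma, adjusted p = 0.00193, 0.00370, 0.00161 and 0.0156). Tapbp, which encodes the chaperone tapasin, fell in both zones (-0.28 and -0.29, adjusted p = 0.0161 and 0.0307) and is named after its values were seen. Between zones 13 were higher in LZ and 0 lower in each genotype, with medians of 0.357 and 0.349. Of all genes, 15.2% were higher and 16.1% lower in LZ of sKO, and 18.0% and 16.1% in dKO. With 1 library left out, 1 to 7 were called lower in DZ (1 without dKO DZ replicate 1) and 3 to 8 in LZ (3 without dKO LZ replicate 1).

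**Figure D5:**
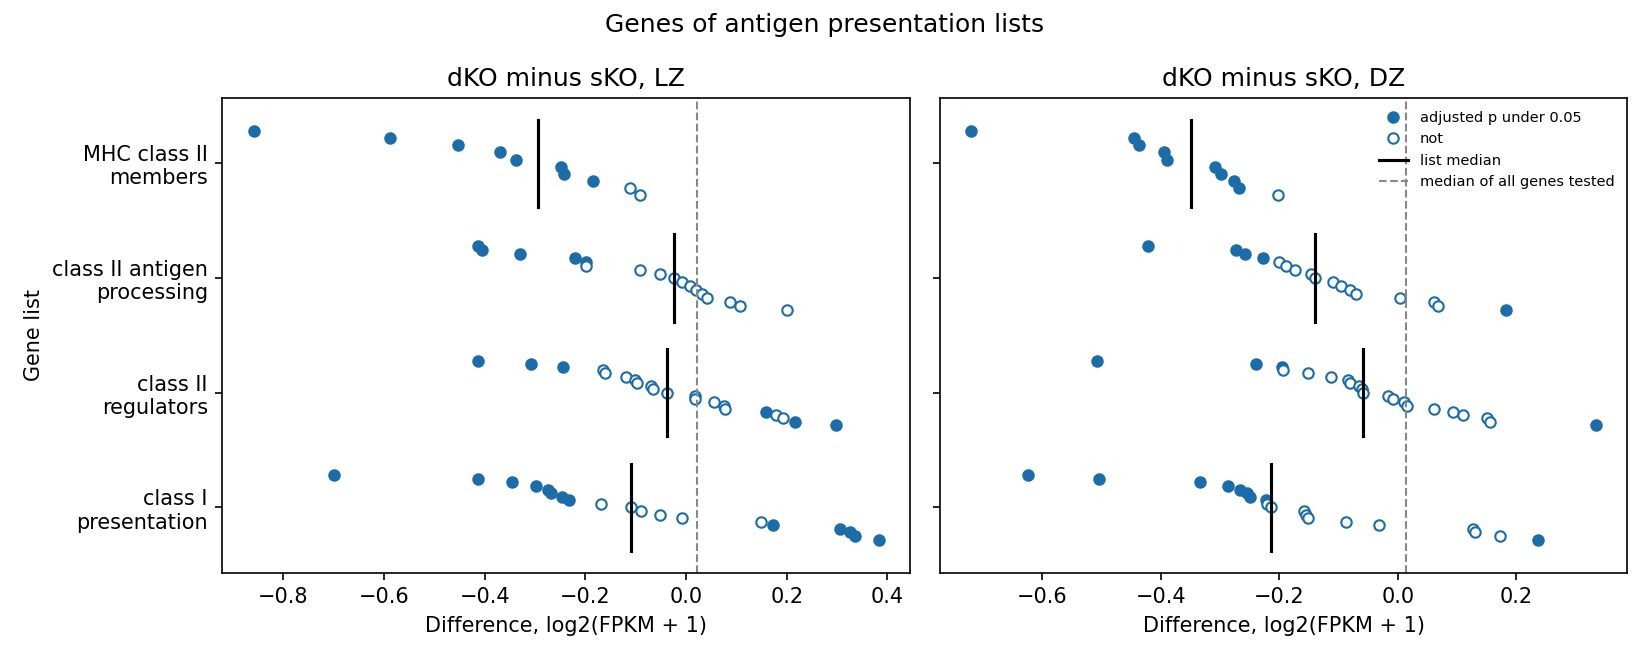
Differences dKO minus sKO on the log2(FPKM + 1) scale for each tested gene of the 4 lists, in LZ and DZ; filled points passed an adjusted p of 0.05, black bars are list medians and the dashed line is the median of all genes tested. All class II members lie left of 0, with medians of -0.293 and -0.349, and the other lists have genes on both sides.

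Profiles across the 8 libraries were compared with 7162 other genes by Pearson r, which depends on the zone and genotype steps that all these genes share and is given as a description. The mean of H2-Aa, H2-Ab1, H2-Eb1 and Cd74 was followed most closely by Ncf1, an NADPH oxidase subunit, and Snx11, a sorting nexin, both with r = 0.998. Next were the adaptor gene Grap, the BAFF receptor gene Tnfrsf13c (r = 0.997) and Snn. Tnfrsf13c was at 325 FPKM for sKO LZ, 281 for dKO LZ, 201 for sKO DZ and 163 for dKO DZ. Among members, r to this mean was 0.967 for H2-DMa, 0.965 for H2-DMb2, 0.940 for H2-DMb1, 0.897 for Ciita, 0.863 for H2-Oa and 0.516 for H2-Ob.

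Ciita had other companions. The nuclear body gene Sp140 had the highest r, 0.995, followed by the integrin gene Itgal, the glutamate receptor gene Grm6 (0.994), Cd300lf, a myeloid-type receptor gene, and Tbc1d14 (0.991). Sp140 was at 183 FPKM for sKO LZ, 133 for dKO LZ, 133 for sKO DZ and 102 for dKO DZ. Of the members, H2-DMb1 (0.990), H2-Oa (0.988), H2-DMb2 (0.976) and H2-DMa (0.950) were nearest to Ciita, and Cd74 (0.925), H2-Aa (0.908), H2-Eb1 (0.881), H2-Ab1 (0.857) and H2-Ob (0.823) were further away.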

How the data were processed

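The deposited table gives FPKM for 23234 gene rows and 8 libraries, per the file headers. The submitters' processing notes name TopHat2 2.0.8 and Cufflinks 2.1.1, and mm9, without options, annotation or strand. Values were taken as log2(FPKM + 1), and the 10610 genes that reached 1 FPKM in 2 or more libraries were fitted as group means with limma 3.58.1 (R 4.3.3, trended variance prior, 4 residual and 2.46 prior degrees of freedom). Tests were two-sided with Benjamini-Hochberg adjustment over all genes per comparison, and "rose" and "fell" mean an adjusted p under 0.05. Members and gene lists were chosen with earlier results of these data known. Some genes of the lists are not reported here and were left out of list counts and sums. All members were to be named, all regulators could be, and of each other list the 4 tested genes with the smallest p. Same-numbered replicates of the groups compared had deviations correlated at -0.0976 to 0.124, so the numbers were not taken as pairs. Count tests were not run. Sequences are from RefSeq (GRCm38.p6) and GENCODE M21 transcripts, aligned with Biopython 1.88.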

Additional observations from a re-analysis of the deposited data

How the results depend on the processing

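Calls of H2-Oa, H2-DMb1 and H2-DMb2 between genotypes held in both zones under every alternative run. With 1 library left out, members called numbered 5 to 9 in LZ and 3 to 9 in DZ for genotype. Under the other alternatives they numbered 6 to 9 and 6 to 10 for genotype, 9 to 10 for zone in sKO, 8 to 9 in dKO and 0 for the interaction. With the replicate block the counts were 8, 8, 10, 9 and 0, and Cd74 in DZ was the genotype call it removed. Of 935 member values under alternatives, 869 kept direction and side of the threshold, 50 fell short of it, 6 newly passed and 10 changed sign. With quantile normalization, Cd74 gave 0.109 (genotype in LZ) and -0.109 (zone in sKO), since the rank of Cd74, 1 to 3 in each library, then sets its value. That normalization also gave -0.026 for H2-Ab1 and -0.032 for H2-DMb1 in the interaction. Upper quartile scaling gave interactions of -0.021 for H2-DMb1 and -0.008 for Cd74. With 1 library left out, the interaction of H2-DMb1 was -0.008 (without sKO DZ replicate 1) to 0.047 and that of Cd74 -0.020 (without sKO DZ replicate 2) to 0.085. H2-Ob between zones in dKO was then -0.028 to 0.022 (without dKO LZ replicate 1), and 0.004 without dKO DZ replicate 1. None of these 8 had been called. With means of log2 values, the H2-DM to H2-O ratio differed by 0.086 for genotype in DZ, -0.031 for zone in sKO, 0.288 for zone in dKO, 0.245 for genotype and 0.129 for zone, and its genotype difference in DZ was -0.050 to 0.006 with 1 library left out; the cause was not tested. All genes called for genotype numbered 3299 in LZ (1703 without dKO LZ replicate 1, 2177 with only the libraries compared) and 1258 in DZ (112 without dKO DZ replicate 1, 649 with only the libraries compared). Between zones they numbered 3312 in sKO (2006 without sKO DZ replicate 2, 1678 with only the libraries compared) and 3623 in dKO (2007 without dKO DZ replicate 1). FPKM give no counting error, so precision rests on 2 libraries a group.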
